A study of Homo sapiens with 4 samples.

Results

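The 48 genes described here encode glucose transporters, the enzymes of glycolysis, the proteins that handle lactate and the entry of pyruvate into mitochondria, and enzymes of the citric acid cycle with the malic enzymes that feed off it. They were chosen by gene symbol from the 60880 gene identifiers in the count tables, by a rule that uses no measured value but was written with earlier results of these libraries known. All 48 were found, and all 48 were among the 15626 genes with enough reads to be tested, although SLC2A3 reached that level only through its reads in LN95(KO). RNA-Seq counts came from 4 libraries of human prostate cancer cells, 2 of LNCaP95 (replicates 1 and 2, genotype WT) and 2 of LN95(KO) (replicates 3 and 4, genotype UGT2B17 KO). LNCaP95 is an androgen-independent subline of the LNCaP prostate cancer line, and LN95(KO) is LNCaP95 in which UGT2B17, an enzyme that inactivates androgens by glucuronidation, was disrupted with CRISPR. Both lines grew in RPMI1640 medium with charcoal-stripped serum, which is depleted of steroids, and received no treatment. How many knockout clones were used is not stated, the labels name LN95 for all 4 libraries while the series text names LNCaP for the knockout line, and nothing states that replicates were separate cultures, so p-values measure only the spread between these libraries.

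Glycolysis splits glucose into pyruvate in the cytosol and yields ATP and NADH. Pyruvate is then either reduced to lactate and exported, or carried into mitochondria, where pyruvate dehydrogenase turns it into acetyl-CoA for the citric acid cycle. Normal prostate epithelium is known for accumulating zinc and for secreting citrate instead of oxidising it, and prostate cancer cells are known for losing that zinc store and oxidising citrate.

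The libraries held between 17330338 and 18813193 gene reads. UGT2B17 counted 2788 and 2748 reads in the LNCaP95 libraries but 21 and 20 in LN95(KO), for a log2 fold change of -7.04 (SE 0.10, edgeR quasi-likelihood adjusted p = 1.18e-18), so the targeted gene was low in the libraries labelled as knockout. The 6 luminal prostate cancer markers examined (KLK3, HOXB13, FOLH1, KRT8, KRT18 and EPCAM) were all detected in every library, with a summed level of 2518 to 2549 CPM (read counts scaled to library size, with TMM factors) in LNCaP95 and 2278 to 2349 CPM in LN95(KO). Among them KLK3 was called higher (31.4 and 35.0 CPM against 423 and 392 CPM) and FOLH1 lower (960.5 and 940.1 CPM against 394 and 379 CPM), called meaning an adjusted p under 0.05 in the edgeR quasi-likelihood test and a fold change over 2. Of 14 basal, stromal, endothelial and leukocyte markers, 5 to 7 were at 0 in each library, DCN, CDH5, CD68 and CD3E in all 4, and the 14 summed to 34.2 and 35.2 CPM in LNCaP95 and 40.6 and 43.3 CPM in LN95(KO), most of it COL1A1 (28.4 and 28.4 CPM against 34.2 and 31.8 CPM). The Ensembl canonical transcript of CD68, its representative transcript in the annotation, shares all its bases with another gene, so its 0 cannot be read as absence. KRT14 (1 and 2 counts against 17 and 20) and VWF (8 and 8 against 49 and 58) were called higher and LUM (24 and 19 against 0 and 0) lower. Each had fewer than 10 counts per library in its lower group and was tested only through the group where it is high, so these calls carry little weight. The 10 S and G2/M phase markers, such as MKI67 and TOP2A, summed to 217 and 231 CPM in LNCaP95 against 958 and 1165 CPM in LN95(KO), and 9 of the 10 were called higher (90.0%, against 8.86% of all genes tested). Unaligned reads were 3.85% and 3.96% of the LNCaP95 entries and 7.71% and 8.05% of the LN95(KO) entries. The part of these markers and of the unaligned reads in the results below was not tested.

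More reads fell on the glycolysis and citric acid cycle genes in LN95(KO) than in LNCaP95. The 48 genes together took 0.965% (95% Wilson interval 0.960 to 0.969) and 0.928% (0.923 to 0.932) of gene reads in LNCaP95 replicates 1 and 2. In LN95(KO) they took 1.54% (1.53 to 1.55) in replicate 3 and 1.61% (1.60 to 1.62) in replicate 4. Both LN95(KO) libraries lay above both LNCaP95 libraries. The 14 genes for the enzymes from hexokinase to pyruvate kinase moved from 0.515% and 0.490% to 0.932% and 0.979%, and the 13 citric acid cycle genes from 0.296% and 0.291% to 0.366% and 0.375%. These 13 include the cytosolic forms IDH1, ACO1 and MDH1. IDH1 alone had 19858 and 19260 reads in LNCaP95 and 13016 and 12843 in LN95(KO), which lessens the rise of the 13. The intervals of these shares cover counting error only, and in RNA from whole cultures fewer cells of a type and less RNA per cell cannot be told apart.

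**Figure D1:**
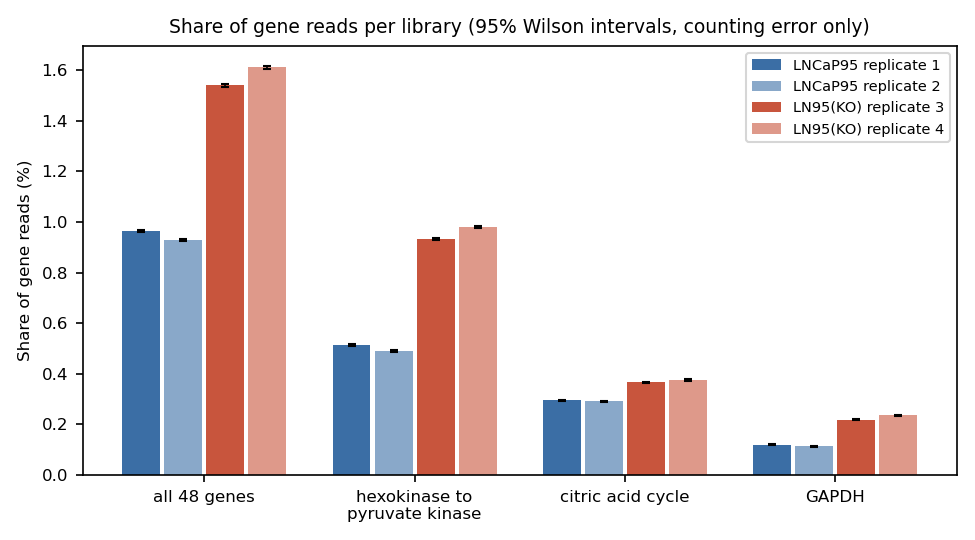
Share of gene reads (vertical axis, percent, starting at 0) taken by all 48 genes, by the 14 genes from hexokinase to pyruvate kinase, by the 13 citric acid cycle genes and by GAPDH, with 1 bar for each library and error bars for 95% Wilson intervals of counting error. In each of the 4 sets both LN95(KO) bars stand above both LNCaP95 bars, from 0.928% and 0.965% to 1.54% and 1.61% for all 48 genes.

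Of the 48 genes, 11 were called higher in LN95(KO) and 0 were called lower. The background over all 15626 genes was 8.86% called higher and 9.13% called lower, so 11 of 48, or 22.9%, stood beside 8.86%. DESeq2 called 10 of the 48 higher and 0 lower. At an adjusted p under 0.05 and any fold change, the sense in which rose and fell are used below, 38 of the 48 rose (79.2%, against 29.8% of all genes), 4 fell (8.33%, against 30.1%), and 6 did not pass. Those that fell were PC, ACO1, IDH1 and ME2, which were also the 4 genes lower at an unadjusted p under 0.05. Both LN95(KO) libraries lay above both LNCaP95 libraries for 41 genes (85.4%, against 39.8% of all genes) and below them for 5 (10.4%, against 39.9%), and the groups overlapped for SUCLA2 and PDK3. The median log2 fold change was 0.56, against -0.01 over all genes. Without SLC2A3, 10 of 47 were called higher, 37 rose and the median was 0.56.

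Among the 24 genes of glucose uptake, glycolysis and lactate handling, 9 were called higher (37.5%, SLC2A3 among them, against 8.86% of all genes). Of these 24, 22 rose (91.7%, against 29.8% of all genes), 0 fell (against 30.1%), and the median log2 fold change was 0.88. In the other 24, from the mitochondrial pyruvate carrier to the malic enzymes, 2 were called higher (8.33%), close to the 8.86% of all genes. Of these 24, 16 rose (66.7%, against 29.8%), 4 fell (16.7%, against 30.1%), and the median was 0.38. SLC2A3, which has no reads in LNCaP95, leaves these medians as they are when set at the lower bound of its fold change. Neither the difference in calls nor that between the medians was tested. Replicates of a group also differed in 1 direction across these genes, since LNCaP95 replicate 1 lay above replicate 2 for 32 of the 48 (66.7%, against 49.5% of all genes) and LN95(KO) replicate 4 above replicate 3 for 29 (60.4%, against 50.8%).

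Of the 3 glucose transporters, SLC2A1 and SLC2A12 rose, and SLC2A3 was detected in LN95(KO) alone. SLC2A1 encodes GLUT1, the basal glucose transporter of most cells, and had the highest level per length of the 3. It had 60.1 and 57.2 CPM in LNCaP95 and 91.4 and 82.4 CPM in LN95(KO), or a log2 fold change of 0.57 (SE 0.064, edgeR adjusted p = 7.18e-07), so it rose without reaching a 2-fold change. SLC2A12 (GLUT12, an insulin-responsive facilitative transporter) had 24 and 27 counts in LNCaP95 against 219 and 186 in LN95(KO). Both LN95(KO) libraries stood far above both LNCaP95 libraries, with a log2 fold change of 3.02 (SE 0.19, edgeR adjusted p = 3.66e-10). The gene lies on the minus strand of chromosome 6 (GRCh37 134308719 to 134373762), and 51.2% of its exon bases are shared with a gene on the opposite strand, which unstranded counting sets aside as ambiguous. SLC2A3 (GLUT3, the high-affinity transporter typical of neurons) had 0 counts in both LNCaP95 libraries and 15 and 19 counts in LN95(KO), at least 11.6-fold higher against a floor of 3 counts over the LNCaP95 group. Since it entered the test only through the group where it is high, it had to differ, and its p-value is not given. Its near-identical copy SLC2A14 had 0 counts in all 4 libraries, and 3.58% of the 100-base windows of SLC2A3 transcripts also occur in another gene.

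All 9 genes of upper glycolysis, from hexokinase to triosephosphate isomerase, rose (against 29.8% of all genes). Of them 3 were called higher (33.3%, against 8.86%). GPI, which turns glucose 6-phosphate into fructose 6-phosphate, had 302 and 289 CPM in LNCaP95 and 762 and 792 CPM in LN95(KO). The groups were far apart relative to the spread within them, with a log2 fold change of 1.39 (SE 0.048, edgeR adjusted p = 1.12e-13). PFKP, the platelet-type subunit of phosphofructokinase, the committing step of glycolysis, had 54.9 and 50.1 CPM against 131 and 137 CPM (log2 fold change 1.35, SE 0.060, edgeR adjusted p = 3.14e-12). ALDOC, an aldolase best known from brain, had 28.9 and 28.1 CPM against 68.5 and 67.6 CPM (log2 fold change 1.26, SE 0.066, edgeR adjusted p = 3.22e-11). For both genes the lower LN95(KO) library was more than 2-fold above the higher LNCaP95 library.

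The other upper glycolysis genes rose by less. The hexokinases, which trap glucose in the cell by phosphorylation, had log2 fold changes of 0.59 for HK1 and 0.40 for HK2. The liver and muscle subunits of phosphofructokinase moved less than PFKP, with 0.39 for PFKL and 0.14 for PFKM, and the rise of PFKM (edgeR adjusted p = 0.0227) was the smallest of the 9 and did not pass under DESeq2 (adjusted p = 0.0939). TPI1, which interconverts the triose phosphates, had the highest level per length in the group, at 258 and 239 CPM per kilobase in LNCaP95 and 365 and 411 CPM per kilobase in LN95(KO). Its groups did not overlap, and its log2 fold change was 0.64 (SE 0.057, edgeR adjusted p = 3.28e-08). ALDOA, the aldolase of most tissues, had only 90 and 80 counts in LNCaP95 against 157 and 156 in LN95(KO), with a log2 fold change of 0.91. In the annotation 89.8% of the bases of its Ensembl canonical transcript belong also to other genes. Among them is a readthrough gene, ENSG00000285043, which was itself given 11 to 19 counts per library. Reads on more than 1 gene are not counted for any, so the low level of ALDOA cannot be read as low expression.

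The PFKFB enzymes make and break down the sugar phosphate that most strongly activates phosphofructokinase, and all 3 measured ones rose (against 29.8% of all genes). PFKFB4 had 158 and 150 counts in LNCaP95 against 434 and 426 in LN95(KO), and was called higher with a log2 fold change of 1.51 (SE 0.10, edgeR adjusted p = 9.52e-10). PFKFB3, whose kinase activity far exceeds its phosphatase activity, had the highest level per length of the 3 when averaged over the 4 libraries, at 2.79 and 2.86 CPM per kilobase in LNCaP95 and 5.13 and 4.92 in LN95(KO) (log2 fold change 0.83, SE 0.084, edgeR adjusted p = 1.91e-07). PFKFB2 had the highest in both LNCaP95 libraries, and with the longest transcript as length PFKFB4 ranked above PFKFB3. The log2 fold change of PFKFB2 was 0.29 (edgeR adjusted p = 0.00324), and the adjusted p of DESeq2 for it was 0.0582. In all 3 both LN95(KO) libraries lay above both LNCaP95 libraries (against 39.8% of all genes).

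In lower glycolysis, where ATP and pyruvate are made, all 5 genes rose (against 29.8% of all genes), by log2 fold changes between 0.78 (ENO1) and 1.20 (PGK1). PGK1, the first ATP-producing enzyme of the pathway, had 458 and 432 CPM in LNCaP95 and 1022 and 1023 CPM in LN95(KO). Both LN95(KO) libraries were more than 2-fold above both LNCaP95 libraries, and PGK1 was called higher (SE 0.047, edgeR adjusted p = 6.77e-13). It was the only called gene of the 5 (20.0%, against 8.86% of all genes). GAPDH, which oxidises glyceraldehyde 3-phosphate and produces NADH, had the highest level per length of all 48 genes. It stood at 507 and 482 CPM per kilobase in LNCaP95 and 893 and 971 CPM per kilobase in LN95(KO), or a log2 fold change of 0.91 (SE 0.051, edgeR adjusted p = 6.58e-11), or a fold change of 1.88. Its share of gene reads was 0.119% and 0.113% in LNCaP95 against 0.219% and 0.236% in LN95(KO). GAPDH is commonly used as a reference gene, and it was the one the study used to normalise its qPCR. Antisense annotation covers 17.6% of its exon bases and 32.8% of the bases of its Ensembl canonical transcript. Of the 100-base windows of its transcripts, 7.91% occur in another gene.

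The remaining lower glycolysis genes moved close to GAPDH. PGAM1, phosphoglycerate mutase, had 194 and 183 CPM against 342 and 383 CPM (log2 fold change 0.94), and 32.3% of the 100-base windows of its transcripts occur in another gene, so its counts are uncertain. ENO1, the main enolase of these cells, had 1101 and 1065 CPM against 1838 and 1884 CPM. PKM, pyruvate kinase of non-liver tissues, had 715 and 686 CPM against 1216 and 1303 CPM (log2 fold change 0.85). For all of these the LN95(KO) libraries lay above the LNCaP95 libraries (against 39.8% of all genes) without reaching a 2-fold change.

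Of the genes that handle lactate, LDHA had the highest level and, on the log2 scale, the largest change. LDHA, the lactate dehydrogenase subunit that favours reduction of pyruvate to lactate, lies on the plus strand of chromosome 11 (GRCh37 18416107 to 18429972). It had 381 and 334 CPM in LNCaP95 and 913 and 1043 CPM in LN95(KO). Both LN95(KO) libraries were more than 2-fold above both LNCaP95 libraries, and the log2 fold change was 1.45 (SE 0.073, edgeR adjusted p = 6.12e-09). SLC16A3 (MCT4, a lactate exporter) had few reads, with 18 and 15 counts in LNCaP95 against 30 and 49 in LN95(KO). It was called higher (log2 fold change 1.28, SE 0.32, edgeR adjusted p = 0.00207), but not by DESeq2 (adjusted p = 0.0653) and not by edgeR without LN95(KO) replicate 4 (log2 fold change 0.92, adjusted p = 0.0724). SLC16A1 (MCT1, the transporter that moves lactate in either direction) had 261 and 245 CPM against 277 and 266 CPM and did not pass (log2 fold change 0.10, edgeR adjusted p = 0.0908). LDHB, the subunit that favours lactate oxidation, had 45 and 49 counts against 54 and 58 counts and did not pass (log2 fold change 0.28, 95% interval -0.12 to 0.69). The gene ENSG00000285854 shares 76.5% of the bases of the Ensembl canonical LDHB transcript, and its own counts were 0 or 1 in each library, so the level of LDHB cannot be read as low expression.

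LDHA and PGK1 are textbook targets of hypoxia-inducible factor, which binds the core letters ACGTG or GCGTG. Their promoters are shown for that reason, with only ACGTG marked. PFKFB4, likewise called higher, is shown as a gene whose window lacks ACGTG but holds GCGTG. The sequences are the 250 bases before an annotated RefSeq start (build GRCh38.p14, which is not the build of the counts), 5′ to 3′ on the strand of the gene, and capitals mark ACGTG on either strand, with overlapping matches merged.
LDHA promoter, chr11:18394313-18394562, plus strand: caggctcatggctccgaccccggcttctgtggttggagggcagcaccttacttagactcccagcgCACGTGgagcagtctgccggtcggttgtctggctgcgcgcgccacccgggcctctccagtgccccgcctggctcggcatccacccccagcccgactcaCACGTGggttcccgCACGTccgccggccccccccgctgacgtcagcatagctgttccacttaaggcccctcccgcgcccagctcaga
PGK1 promoter, chrX:78103998-78104247, plus strand: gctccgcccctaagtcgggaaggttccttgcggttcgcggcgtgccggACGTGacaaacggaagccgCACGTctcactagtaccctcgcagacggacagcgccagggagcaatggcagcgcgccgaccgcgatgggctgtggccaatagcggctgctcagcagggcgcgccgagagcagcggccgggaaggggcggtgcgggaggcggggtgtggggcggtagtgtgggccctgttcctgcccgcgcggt
PFKFB4 promoter, chr3:48556804-48557053, minus strand: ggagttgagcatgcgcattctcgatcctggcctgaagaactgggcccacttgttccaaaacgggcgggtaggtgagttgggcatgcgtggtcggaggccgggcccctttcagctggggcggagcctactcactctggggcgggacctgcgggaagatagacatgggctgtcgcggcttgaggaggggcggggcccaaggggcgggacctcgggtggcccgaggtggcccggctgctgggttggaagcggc

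The LDHA window held 3 such stretches, 2 of which read CACGTG and so match on both strands, the PGK1 window held 2, and the PFKFB4 window held 0. GCGTG, the other form of the wider core below, was not marked, and the PGK1 and PFKFB4 windows both contain it. A second LDHA start in the RefSeq table held 0. Of the 48 genes 44 had at least 1 RefSeq window, and 22 of their 78 windows (28.2%) held ACGTG on either strand, against 18.5% of all 35116 windows of that length. CACGTG, which always contains ACGTG, occurred in 10.3% of the windows of these genes and 6.34% of all windows. The wider core, ACGTG or GCGTG, occurred in 53.8% of the windows of these genes and 43.2% of all windows. Counted by gene, 43.2% of the 44 held ACGTG in at least 1 window, against 21.7% of all 27305 genes with an entry. The 44 genes had more windows per gene (78 windows, against 35116 for the 27305), which by itself raises a share counted by gene. Among the 11 genes called higher, 10 had an entry and 7 held ACGTG in at least 1 window, and among the other 37 genes 34 had an entry and 12 held it. That split was not tested, and the genes differed in their number of windows, from 1 to 7. A match is a description of the letters, and neither binding nor its absence was measured.

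Among the 9 genes of pyruvate entry, 7 rose (77.8%, against 29.8% of all genes), PC fell (11.1%, against 30.1%) and PDK2 did not pass. PDK1, a kinase that switches pyruvate dehydrogenase off, was the 1 called gene (11.1%, against 8.86% of all genes called higher). It had 24.0 and 28.6 CPM in LNCaP95 and 55.0 and 51.7 CPM in LN95(KO), or a log2 fold change of 1.02 (SE 0.082, edgeR adjusted p = 9.91e-09). It lies close to the 2-fold criterion, and its log2 fold change fell short of it without LN95(KO) replicate 3 (0.98), without LNCaP95 replicate 1 (0.90) and with upper quartile factors (0.98). Of the related kinases, PDK2 did not pass, with 171 and 184 counts against 135 and 152 counts (log2 fold change -0.27, edgeR adjusted p = 0.0791), and PDK3 rose (log2 fold change 0.31, edgeR adjusted p = 0.04). PDK3 did not pass under DESeq2 (adjusted p = 0.224) and had a log2 fold change of 0.11 without LN95(KO) replicate 4, and 62.8% of the bases of the Ensembl canonical PDK2 transcript are shared with a gene on the opposite strand.

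The genes of the carrier and of the measured subunits of the complex rose. The mitochondrial pyruvate carrier is made of both MPC1 and MPC2. MPC2 had the highest level per length among the pyruvate entry genes in the average of the 4 libraries, with 28.7 and 27.6 CPM per kilobase in LNCaP95 and 49.6 and 57.5 CPM per kilobase in LN95(KO) (log2 fold change 0.93, SE 0.066, edgeR adjusted p = 1.68e-09). MPC1, at 28.5 and 28.6 CPM per kilobase in LNCaP95, overlapped it there and had a log2 fold change of 0.26 (SE 0.066). Within pyruvate dehydrogenase, DLAT, its acetyltransferase core, had 100.2 and 96.0 CPM against 170.5 and 192 CPM (log2 fold change 0.89). PDHA1 and PDHB, the subunits of its first enzyme, had log2 fold changes of 0.56 and 0.26. PC, pyruvate carboxylase, which makes oxaloacetate from pyruvate, went the other way, with 28.9 and 29.6 CPM against 25.1 and 23.5 CPM (log2 fold change -0.27, edgeR adjusted p = 0.00813), and did not pass under DESeq2 (adjusted p = 0.111).

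Of the 13 citric acid cycle genes, 9 rose (69.2%, against 29.8% of all genes), 2 fell (15.4%, against 30.1%) and 2 did not pass. The 2 that fell, IDH1 and ACO1, encode cytosolic forms. IDH2 was the 1 called gene (7.69%, against 8.86% of all genes called higher). IDH2, the mitochondrial NADP-dependent isocitrate dehydrogenase, had 98.0 and 96.4 CPM in LNCaP95 and 218 and 234 CPM in LN95(KO). Both LN95(KO) libraries were more than 2-fold above both LNCaP95 libraries (log2 fold change 1.22, SE 0.053, edgeR adjusted p = 2.64e-12). IDH1, its cytosolic counterpart, fell. It had 1076 and 1052 CPM in LNCaP95 and 735 and 704 CPM in LN95(KO), with no overlap between groups (log2 fold change -0.56, SE 0.046, edgeR adjusted p = 1.14e-08). ACO1, the cytosolic aconitase that doubles as an iron-regulated RNA-binding protein, also fell, from 63.1 and 61.5 CPM to 50.9 and 49.4 CPM (log2 fold change -0.31, edgeR adjusted p = 3.18e-04).

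CS, citrate synthase, which forms citrate from acetyl-CoA and oxaloacetate, came close to the 2-fold criterion. It had 386 and 404 CPM in LNCaP95 and 748 and 800.5 CPM in LN95(KO) (log2 fold change 0.97, SE 0.049, edgeR adjusted p = 1.98e-11), and its leave-one-out values ran from 0.93 to 1.02. MDH2, the mitochondrial malate dehydrogenase, had the highest level per length among the citric acid cycle genes in LN95(KO) and in the average of the 4 libraries, at 169.8 and 166 CPM per kilobase in LNCaP95 and 218 and 233 CPM per kilobase in LN95(KO) (log2 fold change 0.42). In LNCaP95 IDH1 stood above it, at 229 and 224 CPM per kilobase. MDH1, the cytosolic partner of MDH2 in the malate-aspartate shuttle, had a log2 fold change of 0.49, and FH, fumarate hydratase, one of 0.43. OGDH, the first enzyme of the alpha-ketoglutarate dehydrogenase complex, had 0.52.

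The subunits of single citric acid cycle enzymes did not all move alike. Succinate-CoA ligase pairs the common subunit SUCLG1 with either SUCLG2, which makes it use GDP, or SUCLA2, which makes it use ADP. SUCLG1 rose by a log2 fold change of 0.49 and SUCLG2 by 0.72, while SUCLA2 had 60.2 and 61.6 CPM against 59.5 and 63.7 CPM and a log2 fold change of 0.02 (95% interval -0.11 to 0.14), with overlapping groups. Of the NAD-dependent isocitrate dehydrogenase, IDH3B rose (log2 fold change 0.33), and the catalytic subunit IDH3A had 21.8 and 21.5 CPM against 23.9 and 22.2 CPM and did not pass (log2 fold change 0.09, 95% interval -0.08 to 0.26). A gene on the opposite strand shares 63.9% of the bases of the Ensembl canonical IDH3A transcript. Whether the fold changes of these subunits differ from each other was not tested.

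The malic enzymes, which turn malate into pyruvate, did not rise. ME1, the cytosolic NADP-dependent form, had 69.5 and 69.3 CPM per kilobase in LNCaP95 and 70.9 and 69.5 CPM per kilobase in LN95(KO), the higher level per length of the pair. Its log2 fold change was 0.02 with a 95% interval of -0.08 to 0.11. ME2, the mitochondrial form, fell from 147 and 138 CPM to 112 and 122 CPM (log2 fold change -0.29, SE 0.057, edgeR adjusted p = 3.37e-04).

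**Figure D2:**
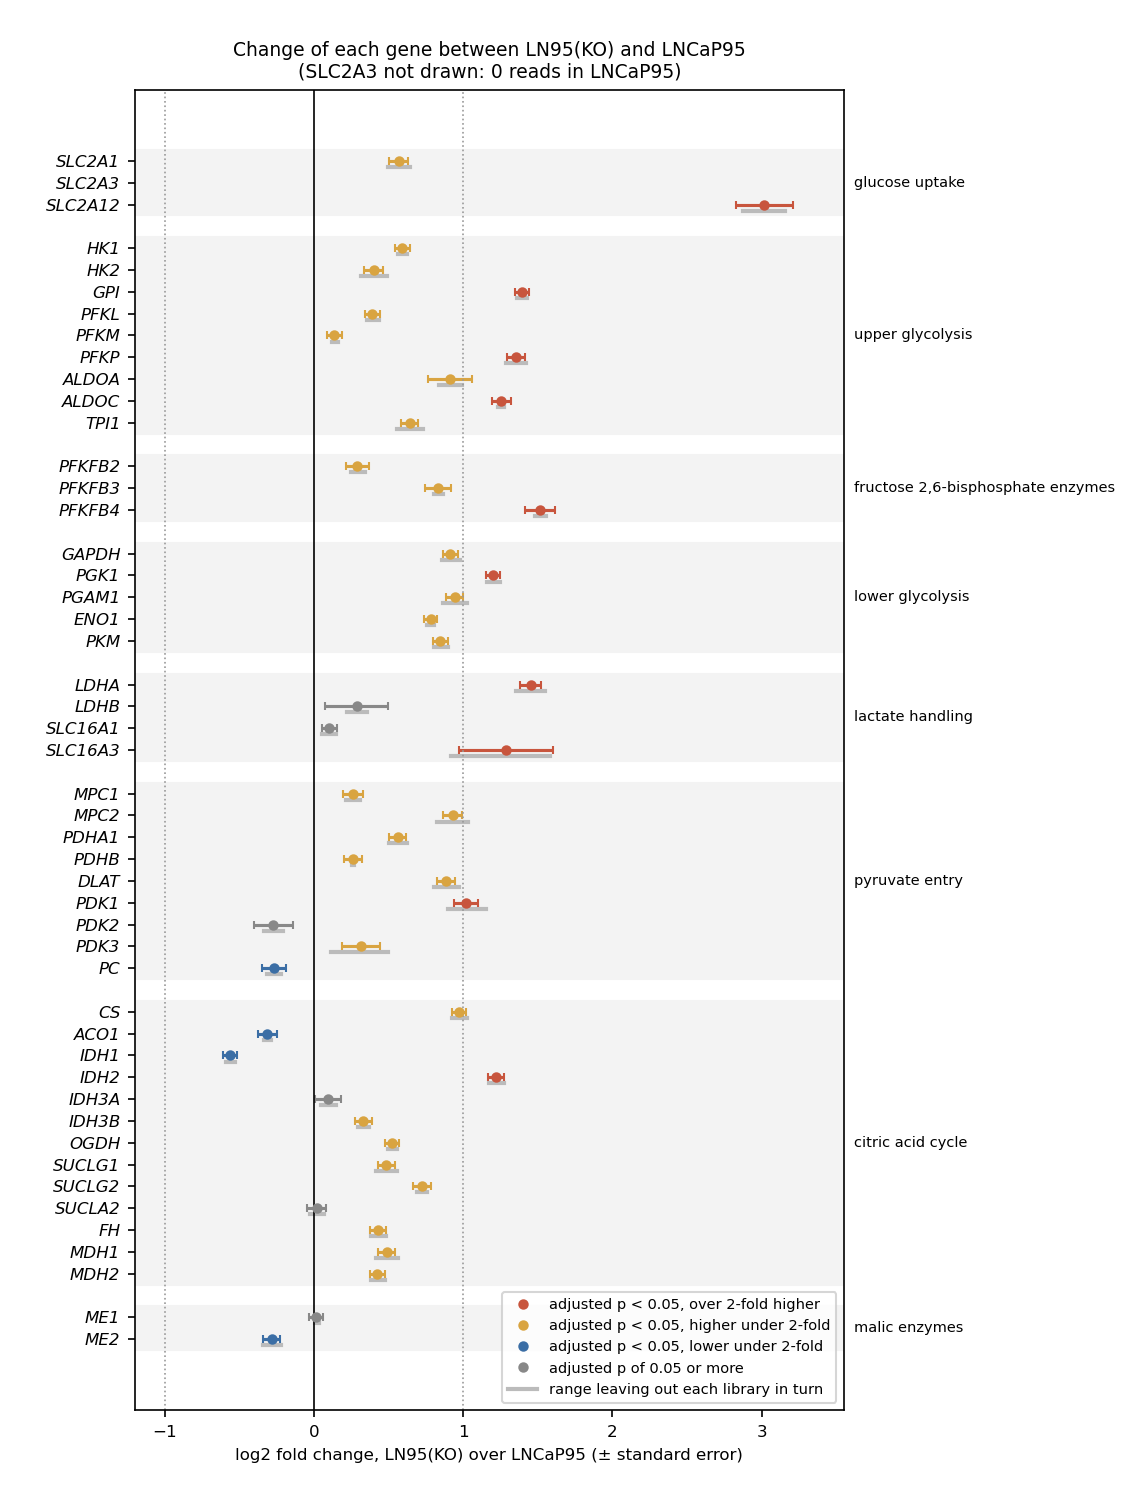
Log2 fold change of LN95(KO) over LNCaP95 for 47 of the 48 genes (points, with bars for ± 1 standard error), in the same order of roles, with grey bars for the range of values when each library is left out in turn and dotted lines at a 2-fold change in either direction. SLC2A12 lies farthest to the right at 3.02, IDH1 farthest to the left at -0.56, and no gene crosses the dotted line on the left.

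Where a step has several genes, the mix of their levels per length differed between the lines. PFKP made up 16.4% and 15.4% of the summed phosphofructokinase level in LNCaP95 and 29.1% and 29.2% in LN95(KO), while the share of PFKM went from 53.9% and 54.8% to 43.2% and 42.6%. PFKFB4 went from 20.0% and 18.6% of the 3 PFKFB genes to 31.3% and 31.4%, with PFKFB3 between 39.7% and 40.4% in the 4 libraries. PDK1 went from 40.1% and 41.8% of the 3 pyruvate dehydrogenase kinases to 62.3% and 57.0%. IDH2 stood at 13.3% and 13.4% of IDH1 and IDH2 together in LNCaP95, and at 33.3% and 36.0% in LN95(KO), so IDH1 still had the higher level of the 2 in every library. The sum of IDH1 and IDH2 was 264 and 258 CPM per kilobase in LNCaP95 and 235 and 234 CPM per kilobase in LN95(KO). SLC2A12 went from 2.50% and 2.97% of the 3 glucose transporters to 13.7% and 12.7%, and SLC2A1 took 85.5% or more in every library. HK1 had 59.6% and 59.8% of the 2 hexokinases in LNCaP95 and 61.5% and 64.3% in LN95(KO). These shares rest on the exon lengths used and are descriptions without a test.

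**Figure D3:**
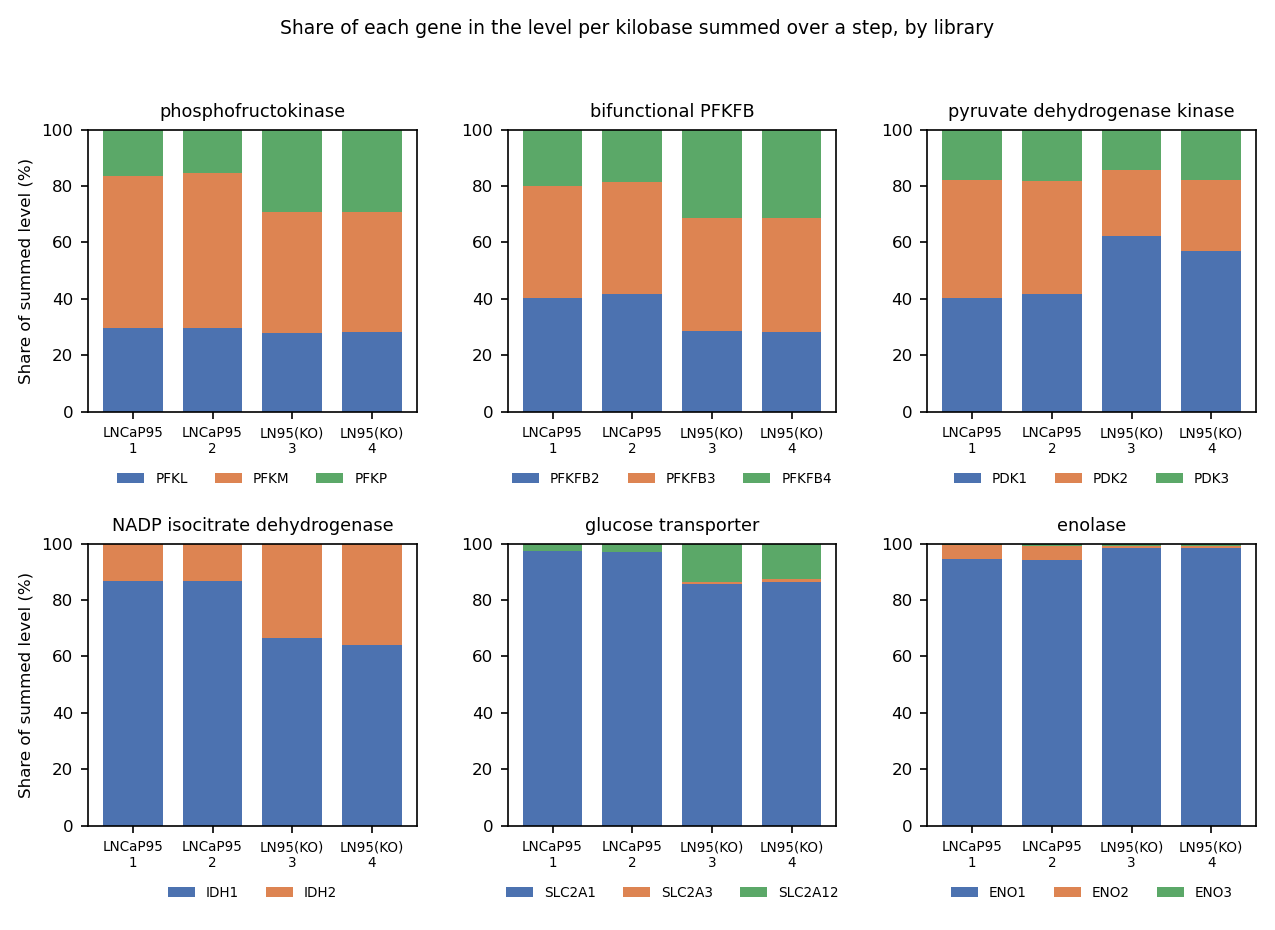
Stacked bars of the share (percent, 0 to 100) of each gene in the level per kilobase summed over a step, for 4 libraries in each of 6 panels. Between the LNCaP95 and LN95(KO) bars the shares of PFKP, PFKFB4, PDK1, IDH2 and SLC2A12 are larger, and that of ENO2 among the enolases goes from 4.95% and 4.92% to 0.822% and 0.757%.

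Levels differed widely between the genes. Averaged over the 4 libraries and taken per length, GAPDH came first, followed by TPI1, ENO1, MDH2, PGK1, LDHA, IDH1, PKM, PGAM1 and CS. Genes of this order change places with the library or the length used, also across several ranks, as do MDH2 and IDH1 between LNCaP95 and LN95(KO). SLC2A3, SLC16A3, PDK3 and LDHB were at the bottom, all at or below 1.10 CPM per kilobase in every library. With the longest transcript as length IDH1 kept rank 7 of the 48, while PGK1 went from rank 5 to rank 9.

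Other genes of these and neighbouring pathways, 113 in 7 lists, moved in both directions. Of these 89 were tested, 10 were called higher (11.2%, against 8.86% of all genes) and 4 lower (4.49%, against 9.13%), 45 rose (50.6%, against 29.8%) and 15 fell (16.9%, against 30.1%), and the median log2 fold change was 0.28. The lists were written with earlier results of these libraries known and carry no test of their own, nor one against the 48 genes. Among 26 other glycolysis genes 13 were tested, with LDHD, a mitochondrial dehydrogenase for D-lactate, called higher (26.8 and 25.1 CPM against 54.7 and 53.2 CPM, log2 fold change 1.06, edgeR adjusted p = 9.08e-10). ENO2, the enolase of neurons and neuroendocrine cells, was called lower, with 47.4 and 45.6 CPM in LNCaP95 and 12.6 and 11.9 CPM in LN95(KO) (log2 fold change -1.92, SE 0.083, edgeR adjusted p = 2.37e-12). SLC2A9, a urate transporter, and SLC2A13, a proton-coupled inositol transporter, were the others called lower, with log2 fold changes of -2.25 and -2.06. Of the 13 tested, 7.69% were called higher and 23.1% lower, against 8.86% and 9.13% of all genes. The other 13 genes of this list, among them the liver form PKLR and the testis forms PGK2 and LDHC, had too few reads to be tested by edgeR. SLC2A10 (0 and 0 counts against 7 and 8) was 1 of them, and DESeq2, which tested it, called it higher (adjusted p = 0.0231), so that 5 genes of this list were called by DESeq2 against 4 by edgeR.

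Of 7 genes for running glycolysis in reverse, 4 had too few reads to be tested. FBP1, FBP2, PCK1 and G6PC1 had 0 to 3 counts per library, where 3 counts equal 0.159 to 0.173 CPM. PCK2, mitochondrial phosphoenolpyruvate carboxykinase, fell from 613 and 594 CPM to 342 and 296 CPM (log2 fold change -0.92, edgeR adjusted p = 3.61e-10), under a 2-fold change. G6PC3 had 99.9 and 99.4 CPM in LNCaP95 and 92.2 and 107 CPM in LN95(KO), with overlapping groups. Of 11 further tested genes of pyruvate oxidation and the cycle, 9 rose (81.8%, against 29.8% of all genes), 0 fell (against 30.1%) and 0 were called by edgeR or DESeq2. Their median log2 fold change was 0.40. All 4 subunits of succinate dehydrogenase rose, by log2 fold changes between 0.20 (SDHD) and 0.49 (SDHA), but SDHD did not pass under DESeq2 (adjusted p = 0.0991).

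Genes tied to the citrate and zinc metabolism of prostate split in both directions. Of 18 tested, SLC25A13 and SLC39A1 were called higher (11.1%, against 8.86% of all genes) and MT1G lower (5.56%, against 9.13%). At any fold 7 rose (38.9%, against 29.8%) and 5 fell (27.8%, against 30.1%), and the median was -0.05. SLC25A13, a mitochondrial aspartate-glutamate carrier, had 19.7 and 18.6 CPM against 41.8 and 42.7 CPM (log2 fold change 1.14, SE 0.078, edgeR adjusted p = 1.04e-09). GOT2, the mitochondrial aspartate aminotransferase, SLC25A1, the mitochondrial citrate exporter, and ACLY, which splits cytosolic citrate into acetyl-CoA and oxaloacetate, rose by log2 fold changes of 0.83, 0.71 and 0.38. ANKH, which exports citrate and pyrophosphate from the cell, fell from 84.6 and 82.3 CPM to 52.4 and 50.9 CPM (log2 fold change -0.69). SLC39A1 (ZIP1, the main zinc importer of prostate epithelium) had 19 and 23 counts against 40 and 67 counts (log2 fold change 1.37, and 0.98 without LN95(KO) replicate 4), and 95.9% of the bases of its Ensembl canonical transcript belong also to another gene, so its level and its change are uncertain. MT1G, a zinc-binding metallothionein from a family of near-identical genes, had 400 and 317 counts against 53 and 43 counts (log2 fold change -2.86), while MT2A had a log2 fold change of 0.29.

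The pentose phosphate pathway, which branches off at glucose 6-phosphate, had 9 tested genes in its list, with a median log2 fold change of 0.01. Of these 3 rose (33.3%, against 29.8% of all genes), 1 fell (11.1%, against 30.1%) and 0 were called by edgeR or DESeq2. TKT, transketolase, rose by 0.84 on the log2 scale, and PGD, an enzyme of the oxidative branch, had a log2 fold change of -0.05 with overlapping groups.

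Of 20 hypoxia-induced genes outside glycolysis, 7 were called higher (35.0%, against 8.86% of all genes) and 0 lower (against 9.13%). At any fold 13 rose (65.0%, against 29.8% of all genes) and 3 fell, where 30.1% of all genes fell. The median log2 fold change was 0.58. DESeq2 likewise called 7 higher and 0 lower. The called genes were CA9 (6 and 0 counts against 61 and 48), CA12, NDRG1, LOX, AK4, ERO1A and EGLN3. CA9 had fewer than 10 counts in each LNCaP95 library and was tested through its reads in LN95(KO), so it had to differ. Its place among the 7 therefore carries little weight. CA12, a carbonic anhydrase at the cell surface, had 7.15 and 5.90 CPM in LNCaP95 and 74.0 and 81.3 CPM in LN95(KO) (log2 fold change 3.57, SE 0.096). NDRG1, which is induced by androgens as well as hypoxia, had 22.3 and 18.8 CPM against 187 and 157 CPM (log2 fold change 3.07, SE 0.098). EGLN3, an oxygen-sensing prolyl hydroxylase, and AK4, a mitochondrial adenylate kinase, had log2 fold changes of 1.25 and 1.33. Other classic members went the other way, with log2 fold changes of -0.43 for VEGFA and -0.45 for DDIT4, both of which fell, and EGLN1 had -0.03 with overlapping groups.

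Of 15 regulators of glucose metabolism, 0 were called by edgeR or DESeq2, where edgeR called 8.86% of all genes higher and 9.13% lower. At any fold 8 rose (53.3%, against 29.8% of all genes) and 2 fell (13.3%, against 30.1%). HIF1A, the inducible subunit of hypoxia-inducible factor, had 176 and 179 CPM in LNCaP95 and 260.3 and 241 CPM in LN95(KO) (log2 fold change 0.50), and VHL, which targets it for degradation, had a log2 fold change of -0.31. The mRNA of HIF1A does not give the level of its protein, which is set by oxygen. MYC, a transcription factor known to drive LDHA and other glycolysis genes, had 409 and 419 CPM against 407 and 412 CPM and a log2 fold change of -0.02 (95% interval -0.10 to 0.07). TXNIP, a glucose-induced inhibitor of glucose uptake, had 151 and 145 CPM against 174 and 276 CPM and did not pass (edgeR adjusted p = 0.255), with LN95(KO) replicate 4 well above replicate 3.

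**Figure D4:**
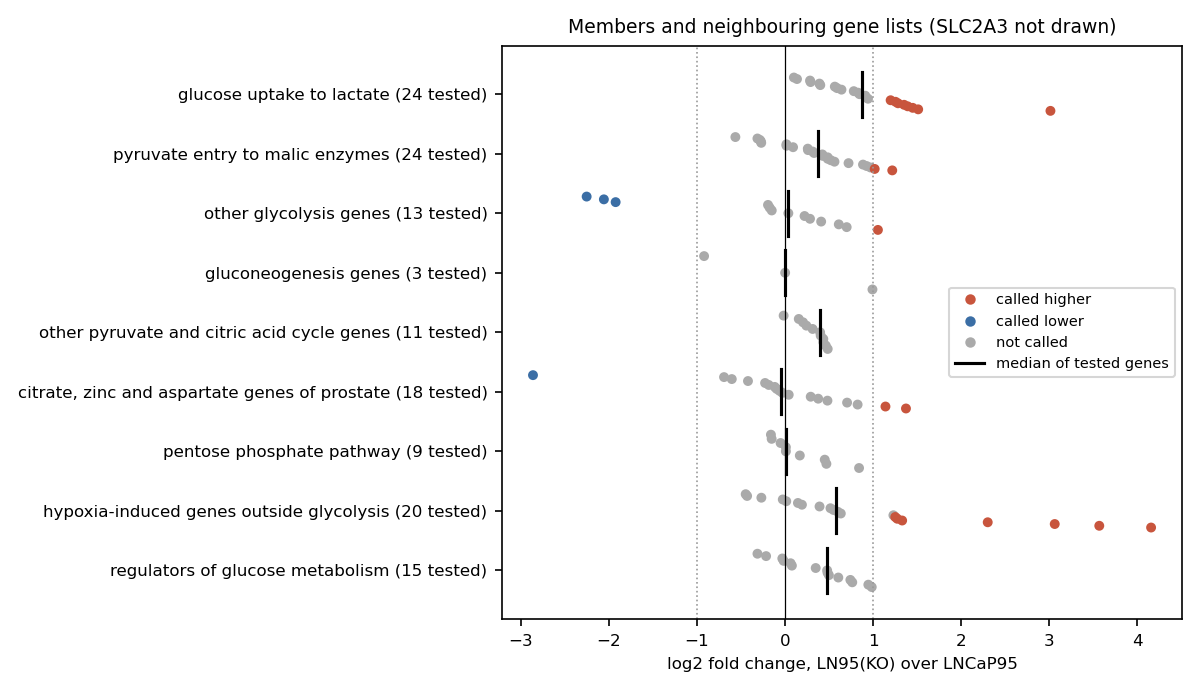
Log2 fold change of LN95(KO) over LNCaP95 for each tested gene (points) in both parts of the pathway and in the 7 neighbouring lists, with black lines at the median of each list and dotted lines at a 2-fold change. The median of the 24 genes from glucose uptake to lactate lies at 0.88, that of the 24 genes from pyruvate entry to the malic enzymes at 0.38, and those of the hypoxia-induced list and the citrate and zinc list at 0.58 and -0.05.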

How the data were processed

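RNA-Seq of 2 LNCaP95 and 2 LN95(KO) libraries was analysed, grouped by the sample labels. Poly(A) RNA was sequenced on the DNBseq platform. The authors used hisat2 (version 2.1.0) for alignment to hg19 and deposited raw counts of reads per gene from htseq and GENCODE annotation, without strand, so reads on overlapping genes or aligned more than once were not counted for any gene. Close copies can lose or gain reads that way. A combined table repeated these counts. Each file ended in 5 summary lines, kept out of library sizes and tests. Symbols were matched for 59899 of the 60880 identifiers. Coordinates, exon overlap and lengths came from a later GENCODE release on GRCh37.

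Genes were kept by filterByExpr (minimum count 10, minimum total count 15) and tested by robust quasi-likelihood in edgeR (version 4.0.16 under R version 4.3.3), using TMM factors and no covariate. Benjamini-Hochberg adjustment ran over all 15626 genes. The procedure was run on simulated counts in which all genes had the same dispersion and few genes changed. That run cannot show how far the p-values hold for these libraries. Standard errors (SE) of log2 fold changes were derived from the F statistic, as the absolute change over its square root, and 95% intervals of log2 fold changes are normal intervals from that error. The common biological coefficient of variation was 4.27%. No permutation test was used, since 2 against 2 allows no two-sided p below 0.333. DESeq2 (version 1.42.0), RLE, upper quartile and no factors, no filter, glmTreat and leaving out each library were the alternatives. A count of 0 allows up to 3 counts (0.159 to 0.173 CPM), and Wilson intervals hold counting error alone, as no molecular identifiers marked PCR copies. Levels per length are CPM per kilobase of merged exons. The genes, lists and named-gene rule (all called genes, the highest level and the largest change in each role, GAPDH, ACLY and SLC39A1) were chosen with earlier results of these data known. Other names were chosen after their values were seen. Some genes of the lists and markers are not reported here and were left out of their counts, medians and sums, and PECAM1, listed among the markers, was not analysed here.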

Additional observations from a re-analysis of the deposited data

Results flagged for a closer look

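Reads that were not aligned, which enter no comparison of genes, took a larger share of all entries in both LN95(KO) libraries, with a lowest share of 7.71% against 3.85% and 3.96% in LNCaP95. Reads aligned more than once made up at least 4.12% of aligned entries in LN95(KO) against 3.94% and 3.96% in LNCaP95. What these reads are, and their part in the results above, was not tested.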

How the results depend on the processing

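Of the 48 genes, 9 (glmTreat against a 2-fold change) to 13 (without LN95(KO) replicate 3) were called higher and 0 lower under every alternative, with 10 under DESeq2 and upper quartile factors and 12 with library totals. At any fold 34 to 39 rose and 3 to 5 fell. CS, PGAM1 and MPC2 crossed the 2-fold line without LN95(KO) replicate 3, and PDK1 and SLC16A3 fell below it or lost significance as given above. The largest shift of the median of all genes by a scaling was 0.055, with library totals. Over all genes glmTreat called 1687 (845 higher, 842 lower). Gluconeogenesis genes called went from 0 to 1 with library totals and ranged from 0 to 2 leaving out each library, and regulators of glucose metabolism from 0 to 2 and from 0 to 1.

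The small log2 fold changes of SUCLA2 (-0.022) and ME1 (-0.022) changed sign with upper quartile factors, and leaving out each library took SUCLA2 from -0.029 (without LN95(KO) replicate 4) to 0.068. With library totals the median of upper glycolysis was 0.70, of the PFKFB enzymes 0.89, of lactate handling 0.84, of pyruvate entry 0.37 and of the malic enzymes -0.079. With upper quartile factors the PFKFB enzymes stood at 0.79, lactate handling at 0.75 and the malic enzymes at -0.17, and without a filter lactate handling at 0.78. Leaving out each library gave 0.60 to 0.73 for upper glycolysis, 0.86 to 0.98 for lower glycolysis, 0.59 to 0.93 for lactate handling and 0.26 to 0.49 for pyruvate entry. The median level of the 48 genes went from 24.5 to 38.2 CPM per kilobase with the longest transcript as length. Causes were not tested. DESeq2 left PFKM, PFKFB2, SLC16A3, PDK3 and PC above 0.05. No paired analysis was possible because LNCaP95 replicates are numbered 1 and 2 and LN95(KO) replicates 3 and 4. Genes under 3 counts per library cannot be told from absent.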

Other observations

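Further genes of the neighbouring lists are given as values without a comparison of lists, and were chosen after their values were seen. PRKAA2, a catalytic subunit of the energy sensor AMPK, rose from 36.6 and 36.3 CPM in LNCaP95 to 70.3 and 70.2 CPM in LN95(KO) (log2 fold change 0.95, edgeR adjusted p = 7.49e-10), while the other catalytic subunit, PRKAA1, fell by a smaller amount (log2 fold change -0.21, edgeR adjusted p = 7.42e-04). MLXIP, a glucose-sensing transcription factor, and its target ARRDC4 had log2 fold changes of 0.76 and 0.74, and both rose. SLC37A4, which carries glucose 6-phosphate into the endoplasmic reticulum, rose from 22.5 and 19.7 CPM to 41.8 and 42.2 CPM (log2 fold change 0.99), just under a 2-fold change.

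GLUD1, glutamate dehydrogenase, fell by less than a 2-fold change (log2 fold change -0.19). The zinc transporters SLC39A3 and SLC30A4 fell, with log2 fold changes of -0.42 and -0.23, whereas SLC30A1, a zinc exporter at the cell surface, had -0.03 with overlapping groups.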
